A study of Mus musculus with 12 samples.

Results

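Mesothelial and epicardial markers are genes of the thin cell sheet that covers the heart and lines the body cavities. The 10 genes Msln, Upk3b, Upk1b, Krt8, Krt18, Krt19, Wt1, Lrrn4, Muc16 and Bnc1 were chosen by name, as array probes whose transcript accession belongs to one of them. The list was drawn up with earlier results of these arrays known. It names no measured value or threshold, so no member lies just inside or outside a limit. Probe accessions matched 9 of the 10, and none matched Muc16. Of these 9, 8 were bright enough to be tested, among 29778 tested genes and unnamed features, and Bnc1 was not. Lrrn4 entered the test only through the control and delta lines, the groups in which it read highest, and Upk1b through 4 arrays. Counts over the 8 tested genes are therefore descriptions.

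RNA came from the heart apex of male C57BL/6J mice aged 15 weeks, on 12 single-colour arrays, 3 in each of 4 knock-in groups. All groups carry an altered Nkx2-5 allele beside a + allele: Nkx2-5 control/+, whose knock-in keeps the isoleucine at position 183, Nkx2-5 I183M/+ and Nkx2-5 I183P/+, in which it becomes methionine or proline, and Nkx2-5 delta/+, a deletion. The protein of Nkx2-5 is a homeobox factor that switches on heart muscle genes. The labels do not say that the replicates of a group are separate animals, so p-values measure only the spread between these samples.

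The epicardium is the mesothelium of the heart, a single layer of flat cells on its outer surface. Mesothelial cells keep the keratins of a simple epithelium and carry surface proteins such as mesothelin. During development, epicardial cells that enter the heart wall give rise to fibroblasts and to the muscle cells of coronary vessels, and the adult layer is known to reactivate part of this programme after injury. A piece of apex holds only a little of this layer, and in bulk RNA fewer cells of a type and less RNA per cell cannot be told apart.

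The sequences just before the gene starts are shown for 4 members, Upk3b and Lrrn4 because they followed Msln most closely across arrays, and Krt8 and Krt18 because their proteins pair. Each line gives 250 bases, 5′ to 3′ on the gene's strand, from RefSeq on GRCm38.p6, a build later than that of the array layout. Capitals mark 3 motifs searched on both strands: AAGTG (bound by NKX factors), CATTCC (bound by TEAD factors) and GNGTGGGNG (bound by WT1).
Upk3b, chr5:136038246-136038495, + strand: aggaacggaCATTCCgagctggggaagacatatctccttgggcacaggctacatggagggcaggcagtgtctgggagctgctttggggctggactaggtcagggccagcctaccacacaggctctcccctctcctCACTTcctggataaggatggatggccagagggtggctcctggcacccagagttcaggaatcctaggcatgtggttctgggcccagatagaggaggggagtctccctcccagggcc
Lrrn4, chr2:132880863-132881112, - strand: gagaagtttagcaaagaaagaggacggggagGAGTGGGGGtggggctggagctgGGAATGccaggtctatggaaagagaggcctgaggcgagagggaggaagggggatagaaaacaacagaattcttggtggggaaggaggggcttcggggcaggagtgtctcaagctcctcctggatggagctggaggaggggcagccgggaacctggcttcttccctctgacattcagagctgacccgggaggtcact
Krt8, chr15:102004343-102004592, - strand: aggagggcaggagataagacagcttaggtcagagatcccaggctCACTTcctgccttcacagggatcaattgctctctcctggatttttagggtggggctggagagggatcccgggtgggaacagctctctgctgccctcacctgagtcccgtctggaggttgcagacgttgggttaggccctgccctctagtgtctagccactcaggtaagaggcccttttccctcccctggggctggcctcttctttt
Krt18, chr15:102027966-102028215, + strand: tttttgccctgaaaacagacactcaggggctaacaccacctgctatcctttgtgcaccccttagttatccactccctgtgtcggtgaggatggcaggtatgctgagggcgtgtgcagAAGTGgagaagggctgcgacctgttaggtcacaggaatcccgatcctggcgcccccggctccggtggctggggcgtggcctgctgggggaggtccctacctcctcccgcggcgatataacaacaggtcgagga
The table of promoters held 6 of the 10 members. In Upk3b, CATTCC began 241 bases before the start, and AAGTG lay on the opposite strand at 115. In Lrrn4, the WT1 motif began 219 bases before the start and CATTCC lay on the opposite strand at 196. AAGTG lay at 206 before Krt8, on the opposite strand, and at 133 before Krt18. Windows of the same length held AAGTG in 40.7%, CATTCC in 12.6% and the WT1 motif in 12.7% of 32851 promoters, and none of the 3 motifs overlapped another in the 4 windows. These matches describe letters only.

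Levels are log2 values of the processed spot intensity minus the array's 75th percentile, so a level of 0 is a probe as bright as that percentile. Spots well above background made up 51.2% to 75.2% on 11 arrays and 99.1% on control replicate 1. The 16593 probes that were dim on 9 arrays had a median level of -2.32 on control replicate 1, -4.88 on I183M replicate 1, -5.07 on delta replicate 2 and between -7.34 and -6.01 on the other arrays. Upk1b, the dimmest tested member, read highest on the same 3 arrays, and the part of this in the members' levels was not tested. After normexp background correction and quantile normalization, called the normalized scale here, these probes lay between 6.40 and 6.54 on all 12 arrays. Results are given with and without control replicate 1 and on both scales where they differ. Slide 2 held I183P replicate 3 and the 3 delta arrays, and slide 1 the other 8. Nkx2-5 itself, the altered gene, read 3.77, 3.78 and 3.92 in delta, lower than on the 6 arrays with a substitution (4.51 to 4.74). Control read 3.11, 4.45 and 4.56. Its log2 fold of delta versus control was -0.22 (limma adjusted p 0.866), -0.68 without control replicate 1 (adjusted p 0.0645) and -0.73 on the normalized scale (adjusted p 0.0313).

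Msln encodes mesothelin, a lipid-anchored surface protein of mesothelial cells that binds the mucin encoded by Muc16. Its probe cleared background everywhere. Msln read -0.69, -0.14 and -0.29 in control, and -0.23, -2.27 and -1.39 in I183M. It read -0.24, -0.28 and -3.24 in I183P, and 0.62, 1.14 and 0.02 in the deletion line. These 3 delta arrays were the 3 highest of the 12 and overlapped no other group, while I183M and I183P each held arrays at the control level and arrays far below it. Group means were -0.38 ± 0.28 (SD, n = 3) in control, -1.30 ± 1.02 in I183M, -1.25 ± 1.72 in I183P and 0.59 ± 0.56 in delta. Its lowest array, I183P replicate 3, lay on the same slide as the delta arrays.

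Upk3b encodes a uroplakin, a membrane protein of the bladder lining that mesothelium also makes. It read -1.84, -3.38 and -3.04 in control, -2.25, -6.20 and -4.70 in I183M, -3.55, -3.08 and -5.92 in I183P, and -0.92, -2.14 and -3.34 in delta. The highest array was delta replicate 1. The 3 arrays lowest for Msln were also lowest for Upk3b, and on them its probe did not clear background. Group means were -2.75 ± 0.81, -4.38 ± 1.99, -4.18 ± 1.52 and -2.13 ± 1.21 (SD, n = 3), in the order control, I183M, I183P and delta, and the delta arrays overlapped every other group.

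Lrrn4, a membrane protein with leucine-rich repeats, was well above background on the 3 control and the 3 delta arrays and on no I183M or I183P array. It read -2.87, -4.26 and -4.11 in control and -3.16, -2.87 and -3.99 in delta. It read -4.10, -6.22 and -4.57 in I183M and -4.87, -4.12 and -5.53 in I183P, values that only bound the level there. All delta arrays lay above all arrays of the substitution lines, and delta overlapped control.

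Upk1b, a tetraspanin that partners other uroplakins, was the dimmest tested member. Its probe is printed on 10 spots, whose SD within an array lay between 0.07 and 0.79. It was well above background on 4 arrays only: control replicate 1 (-1.81), I183M replicate 1 (-3.60), delta replicate 1 (-5.04) and delta replicate 2 (-3.66). The other arrays read -5.51 and -5.75 in control, -5.90 and -5.44 in I183M, -6.40, -5.77 and -7.29 in I183P, and -5.41 in delta. The 3 brightest of these arrays are those on which dim probes read highest.

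The keratins Krt8 (type II) and Krt18 (type I) form the filaments of simple epithelia together, and Krt19 is another type I keratin of such epithelia. Krt18 cleared background on all 12 arrays. It read -0.24, -1.38 and -0.76 in control, -0.50, -0.92 and -0.93 in I183M, -1.10, -1.39 and -0.92 in I183P, and -0.03, 0.07 and -0.36 in the deletion line. The delta arrays lay above all I183M and I183P arrays, and control replicate 1 lay among them. Without that array delta lay above every other array.

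Krt19 read -0.42, -3.97 and -3.50 in control, -2.18, -4.43 and -3.17 in I183M, -3.57, -3.80 and -5.33 in I183P, and -2.78, -1.86 and -2.73 in delta. It was well above background on 10 arrays, and the 2 exceptions were I183M replicate 2 and I183P replicate 3. Krt8 read -1.74, -3.61 and -2.82 in control, -2.02, -3.07 and -3.96 in I183M, -4.24, -3.11 and -4.11 in I183P, and -2.96, -2.54 and -2.29 in delta, with 10 arrays well above background. For both genes delta lay above all I183P arrays and overlapped I183M and control, and control replicate 1 was the highest array.

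Wt1 encodes a zinc finger transcription factor that marks the epicardium and is also known from endothelium. Its accession, like those of the other members, is read by 1 probe. It read -1.0, 1.15 and 0.40 in control, -0.01, 0.34 and 0.29 in I183M, 0.46, 0.45 and 0.26 in I183P, and 0.59, 0.41 and 0.78 in delta. Its means were 0.18 ± 1.09, 0.21 ± 0.19, 0.39 ± 0.11 and 0.59 ± 0.19, and the 2 extreme arrays of the 12 were both controls. Bnc1, a zinc finger protein of epithelia, was well above background on control replicate 1 (-3.04) and I183M replicate 2 (-2.55) only. The other 10 arrays lay between -7.41 and -5.38. On the normalized scale I183M replicate 2 alone stood out, at 7.65 against 6.18 to 6.49 on the others, the array on which Upk3b and Lrrn4 read lowest.

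**Figure D1:**
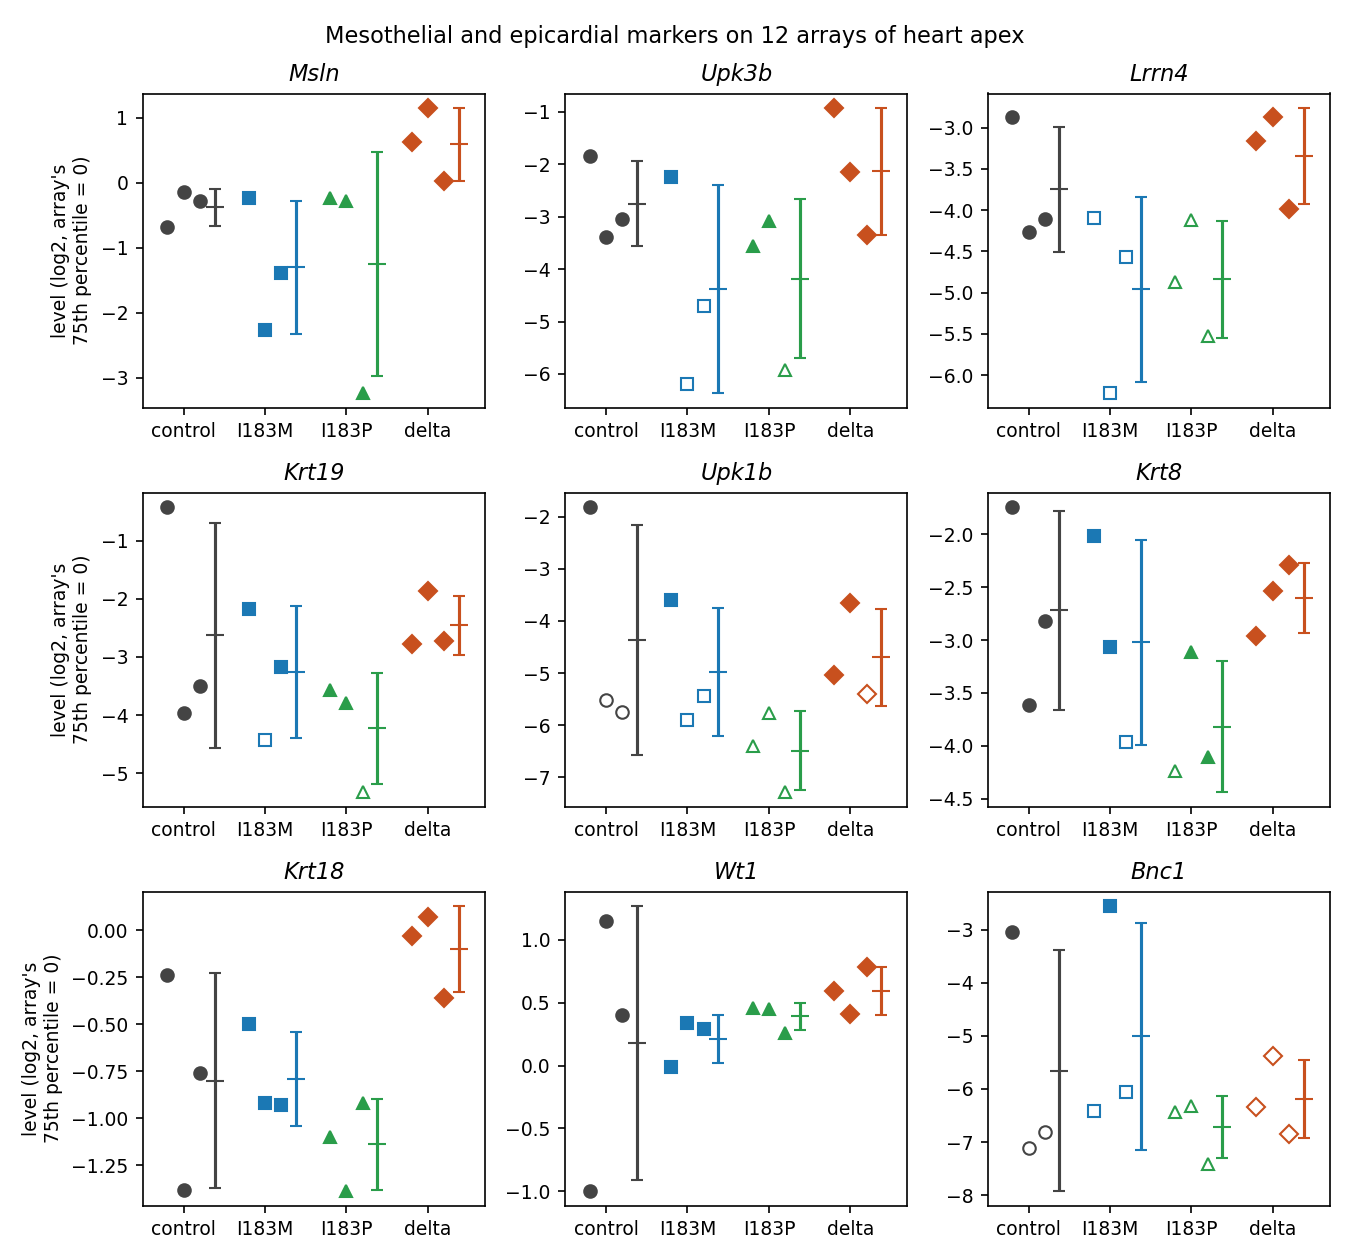
Level of each of the 9 measured markers on every array (vertical axis, log2 with the array's 75th percentile at 0), by line on the horizontal axis, with replicates 1 to 3 from left to right. Filled symbols are probes well above background, open ones are not, and bars give the mean and SD of 3 arrays. Msln in delta (0.02 to 1.14) overlaps no other line.

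The markers read higher in delta than in both substitution lines, by folds that did not pass over all genes. In delta versus I183P, all 8 tested members had a log2 fold above 0 (median 1.64, and 1.21 with dim genes at their bounds), where 67.5% of all genes did (median 0.14). None of the 8 passed at an adjusted p under 0.05 in limma, 3 had an unadjusted p under 0.05, and 0% of all genes passed. For 6 members (Msln, Upk1b, Krt8, Krt18, Krt19 and Lrrn4) the groups did not overlap, where this held for 19.4% of all genes. Krt18 had the smallest p: its log2 fold was 1.03 (SE 0.30, p 0.00667, adjusted p 1). Msln stood at 1.84 (SE 0.79), Upk3b at 2.05 (SE 1.09), Krt19 at 1.78 (SE 0.93) and Krt8 at 1.22 (SE 0.58), with adjusted p 1 for each. Lrrn4 was at least 2.31-fold and Upk1b at least 1.03-fold higher in delta, bounds set against the dimmest signal still well above background (measured means -3.34 and -4.84 for Lrrn4, -4.70 and -6.49 for Upk1b, adjusted p 1). On the normalized scale the log2 folds were smaller, 0.81 for Krt18, 1.34 for Msln, 0.83 for Upk3b, 0.64 for Krt19, 0.43 for Krt8, 0.37 for Lrrn4 and 0.26 for Upk1b, and the median was 0.54. That log2 fold of Lrrn4 was smaller than its bound, so the bound holds on the percentile scale only. Without I183P replicate 3 the fold of Msln was 0.85 and that of Upk3b 1.18. Within slide 2, where that array is the only I183P sample, they were 3.83 and 3.79 (adjusted p 0.917).

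Delta versus I183M shares the delta arrays with that comparison. All 8 members had a fold above 0 (median 0.74, and 0.48 on the normalized scale), where 47.3% of all genes did. None passed in limma (0% of all genes), 3 had an unadjusted p under 0.05, and Msln, Krt18, Wt1 and Lrrn4 did not overlap, as for 17.3% of all genes. Msln stood at a log2 fold of 1.89 (SE 0.79) and Upk3b at 2.25 (SE 1.09), with adjusted p 1. They were at 1.52 and 0.98 on the normalized scale. Without I183M replicate 2 the fold of Upk3b was 1.34, and without I183M replicate 1 it was 3.32. Lrrn4 was at least 1.69-fold higher in delta (means -3.34 and -4.96, adjusted p 1). Its log2 fold on the normalized scale was 0.65, smaller than that bound. The other 5 folds were below 1. No slide holds both lines. With the slide as a block, which rests on I183P as the bridge, Msln stood at 4.87 and Upk3b at 4.86 (adjusted p 1).

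Delta versus control asks what the deletion changes against the knock-in that keeps the protein. A fold above 0 was found for 7 of 8 (median 0.41), where 52.2% of all genes had one, and the exception was Upk1b. None passed in limma, against 0.0739% of all genes, and 1 had an unadjusted p under 0.05. Msln alone did not overlap, as for 13.6% of all genes. All folds lay between -0.35 and 0.97. Without control replicate 1 the median was 0.88 and 7 of 8 were above 0, with Wt1 as the exception. Of all genes 66.7% were then above 0 (median 0.16). On the normalized scale the median of the members was 0.44, with Krt19 as the exception, and 0.22 without control replicate 1.

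**Figure D2:**
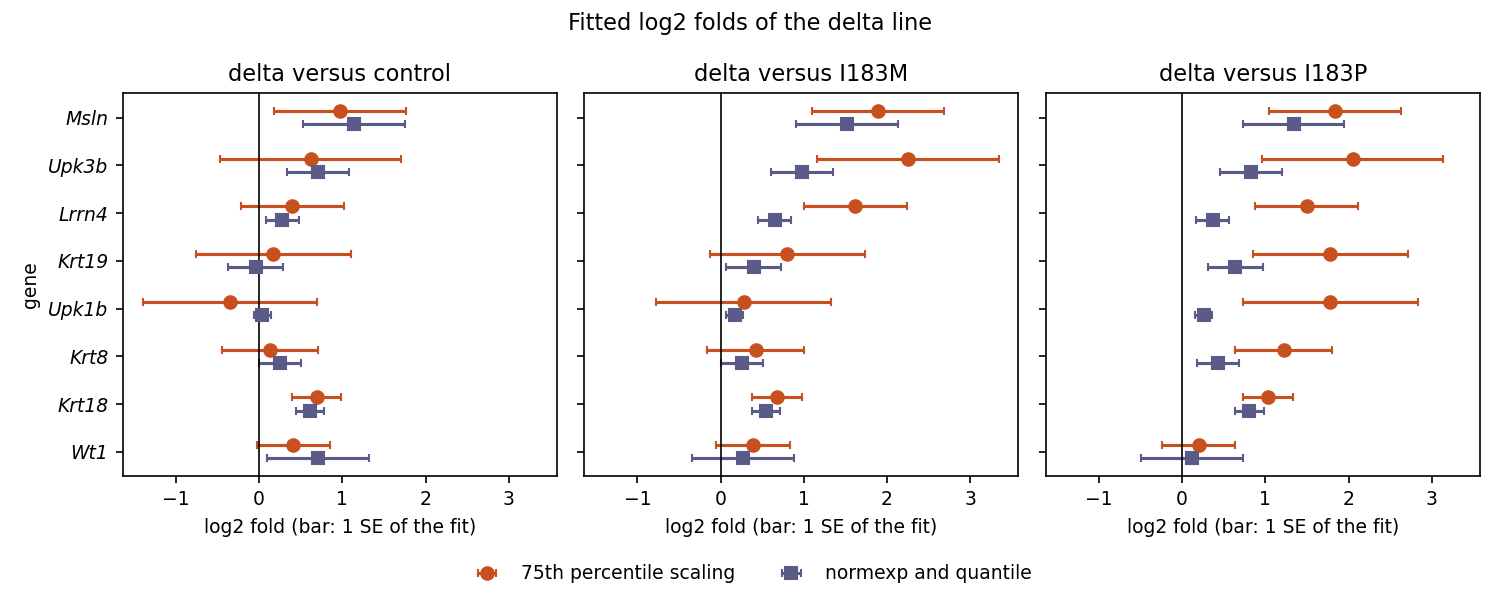
Fitted log2 folds of delta against control, I183M and I183P (horizontal axis, bars 1 SE of the fit) for the 8 tested markers, with circles for 75th percentile scaling and squares for the normalized scale. Against I183M and I183P all 8 lie above 0 on both scales, the folds of dim genes are smaller on the normalized scale, and none passed the threshold. Values of Lrrn4 and Upk1b are fitted folds, not the bounds.

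Both substitution lines read lower than control for most of the markers, again with no call. In I183P versus control 1 of 8 members had a fold above 0 (median -1.10, where 48.9% of all genes were above 0), none passed in limma against 0.00336% of all genes, and none had an unadjusted p under 0.05. Upk1b alone did not overlap (12.8% of all genes), and it was at least 1.31-fold lower in I183P (means -6.49 and -4.36), a control mean that rests on control replicate 1. Krt19 stood at a log2 fold of -1.60 (SE 0.93), Upk3b at -1.43 (SE 1.09) and Krt8 at -1.10 (SE 0.58), and Lrrn4 was at least 1.74-fold lower (means -4.84 and -3.75). The adjusted p was 0.563 for all of these. Without control replicate 1 the bound of Lrrn4 was 1.29-fold (control mean -4.18), and Upk1b cleared background in neither line. The folds were then -0.50 for Krt19, -0.97 for Upk3b and -0.61 for Krt8, the median was -0.64 and no member was above 0. On the normalized scale the median was -0.19. The log2 folds of Lrrn4 and Upk1b were -0.08 and -0.22 there, both smaller than their bounds. Within slide 1 the fold of Upk3b was -0.56.

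In I183M versus control 2 of 8 members were above 0 (median -0.63, where 56.7% of all genes were above 0). None passed in limma (0% of all genes), none had an unadjusted p under 0.05, and none of the 8 was free of overlap, where 3.73% of all genes were. Upk3b stood at -1.63 (SE 1.09, adjusted p 0.879), and Lrrn4 was at least 1.28-fold lower (means -4.96 and -3.75, adjusted p 0.879). That bound rests on control replicate 1, without which the control mean was -4.18, below the floor of -4.10, and no bound is left. Without that array 4 of 8 were above 0 and the median was -0.18, and on the normalized scale the folds of Upk3b and Lrrn4 were -0.28 and -0.37. The 2 substitution lines did not separate from each other: in I183P versus I183M 4 of 8 were above 0 (median -0.16, where 35.4% of all genes were above 0). None passed in limma, none had an unadjusted p under 0.05 and none was free of overlap, where 0% of all genes passed and 24.4% did not overlap. Only Upk1b had a fitted fold beyond 1 in size, and it did not clear background on the I183P arrays, where its bound lay below 1, so no fold is given.

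Most of the markers varied more over the arrays than most genes did. Over the 11 arrays without control replicate 1 the SD of Upk3b was 1.58, larger than that of 95.3% of tested genes, and that of Msln was 1.26, larger than that of 87.1%. The median SD of all genes was 0.32. Upk1b (1.07), Krt19 (1.00), Lrrn4 (0.96) and Krt8 (0.74) followed, with Krt18 at 0.49 and Wt1 at 0.30, below the median gene. Upk1b did not clear background on 8 of the 12 arrays and Lrrn4 on 6. Msln cleared it on all 12, but read below the median gene of the array on I183P replicate 3 and I183M replicate 2 (-1.61 on both).

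Upk3b, Lrrn4, Krt19 and Upk1b varied together with Msln from array to array. Over these 11 arrays Upk3b followed Msln at Pearson r 0.91 (permutation p 2e-04, adjusted over 8 relations 0.00156) and Spearman rho 0.77 (permutation p 0.00758, adjusted 0.0291). Lrrn4 did so at r 0.89 (permutation p 0.00039, adjusted 0.00156) and rho 0.85 (permutation p 0.00154, adjusted 0.0123). Krt19 had r 0.82 (permutation p 0.00182, adjusted 0.00485) and rho 0.73 (permutation p 0.0146, adjusted 0.0291), and Upk1b r 0.69 (permutation p 0.0204, adjusted 0.0408) and rho 0.74 (permutation p 0.0128, adjusted 0.0291). The genes were listed together with results of these arrays known, so these p-values are not independent support. Arrays were permuted without regard to line, so differences between the lines also enter these p-values. Krt8 (r 0.51, rho 0.53), Krt18 (r 0.47, rho 0.53), Wt1 (r 0.33, rho 0.61) and Bnc1 (r -0.18, rho 0.05) did not pass, with permutation p for r of 0.108, 0.146, 0.323 and 0.551 (adjusted 0.173, 0.195, 0.369 and 0.551), and for rho of 0.102, 0.101, 0.0516 and 0.905 (adjusted 0.116, 0.116, 0.0826 and 0.905).

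The relation was also read within the lines. With each array set against its line's mean, r with Msln was 0.86 for Upk3b, 0.79 for Lrrn4, 0.91 for Krt19 and 0.81 for Upk1b, and 0.01 for Krt18 and -0.07 for Wt1. These values were, on the normalized scale, 0.59 for Upk3b and 0.46 for Lrrn4, and 0.86 for Krt19 and 0.83 for Upk1b. Leaving out the 2 arrays farthest from the median of Msln, I183P replicate 3 and I183M replicate 2, gave 0.80 for Upk3b and 0.84 for Lrrn4 over 9 arrays, but 0.51 for Krt19 and 0.47 for Upk1b. The last 2 relations thus rest on those arrays. Over the same 9 arrays r was 0.66 for Krt18, 0.48 for Krt8, 0.32 for Bnc1 and 0.19 for Wt1. Krt18 thus lay above Krt19 and Upk1b there. Among the 7 arrays of slide 1 other than control replicate 1, r was 0.94 for Upk3b, 0.85 for Lrrn4, 0.41 for Krt19 and 0.19 for Upk1b, and slide 2 holds too few arrays. On the normalized scale r over 11 arrays was 0.80, 0.74, 0.85 and 0.86. With control replicate 1 included r was 0.86 for Upk3b, 0.79 for Lrrn4, 0.59 for Krt19 and 0.46 for Upk1b. Among the other pairs, Upk3b and Lrrn4 had r 0.92 and Upk1b and Krt19 r 0.90 over 11 arrays, given as descriptions.

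**Figure D3:**
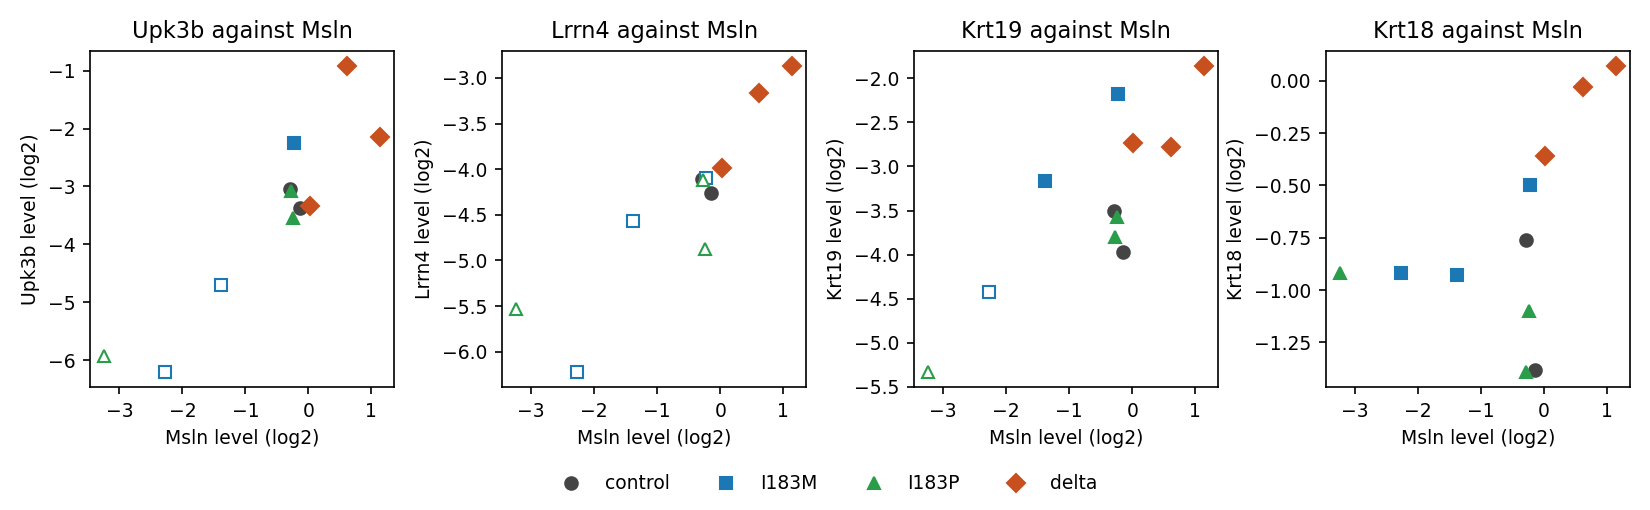
Levels of Upk3b, Lrrn4, Krt19 and Krt18 (vertical axes, log2) against the level of Msln (horizontal axis, log2) on the 11 arrays without control replicate 1, with open symbols where the vertical axis gene was not well above background. Upk3b and Lrrn4 rise with Msln (r 0.91 and 0.89), but neither was well above background on the arrays lowest for Msln. The r of Krt18 was lower (0.47).

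**Figure D4:**
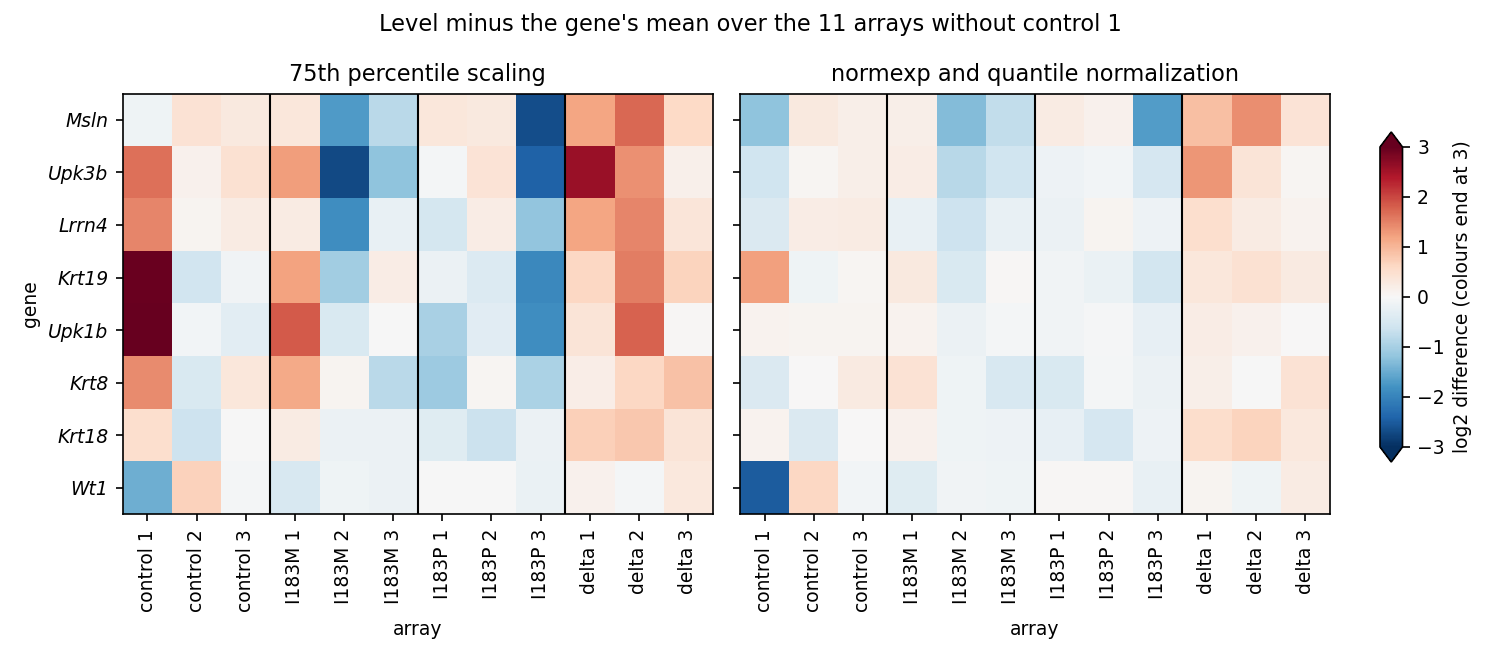
Level of the 8 tested markers (rows) on each array (columns) minus the gene's mean over the 11 arrays without control replicate 1, in log2 units, on the percentile scale (left) and the normalized scale (right). The first 5 genes lie below that mean on I183M replicate 2 and I183P replicate 3 and above it on delta replicates 1 and 2, with smaller differences on the right. These are not always the extreme arrays. Of the 11, Upk1b is highest on I183M replicate 1 on the left (level -3.60). On the right Lrrn4 on I183P replicate 3 (level 6.68) lies above the I183M arrays (6.19 to 6.61).

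Among all 17242 named genes, those most like Msln over the 11 arrays included Upk3b and Lrrn4. The 10 with the highest r were Cyp2s1, a cytochrome P450 (0.98), Nkain4, a partner of the sodium pump (0.95), Cdkl2, a kinase (0.92), Upk3b and Camk1g, a calcium-dependent kinase (0.91 each), Lrrn4 (0.89), Abat, which degrades GABA, Gm5640 and Slc23a3, a member of a transporter family (0.88 each), and Mtfr1l (0.87). Krt19 ranked 26th, Upk1b 183rd, Krt8 1037th, Krt18 1490th and Wt1 3828th. The genes most like Upk3b were Lrrn4 (0.92), Msln (0.91), Ccnd2, a cyclin of the cell cycle (0.89), Cyp2s1 (0.89), Nkain4 and Lrrc8c, a subunit of volume-regulated channels (0.87 each), Camk1g (0.86), Tceal7 and Smpd3, a sphingomyelinase (0.85 each), and Rhox2e (0.84). Cyp2s1 read -1.18, -0.89 and -1.56 in delta, and between -3.53 and -1.78 on the other 9 arrays. It was picked for following Msln, which read highest on the delta arrays, so this separation adds no support. These ranks describe the arrays and carry no test.

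A further list of 16 mesothelial and epicardial genes held some that followed Msln and some that did not. Over the 11 arrays r was 0.95 for Nkain4, 0.83 for Rspo1, a secreted activator of Wnt signalling, and 0.80 for Cldn15, a claudin of tight junctions. Among genes known from the developing epicardium, r was 0.08 for Aldh1a2, which makes retinoic acid, 0.05 for Tbx18 and 0.31 for Tcf21, both transcription factors. Rspo1 read -0.88, -0.95 and -1.17 in delta and between -2.48 and -1.48 on the other 9 arrays, with a log2 fold against I183P of 1.07 (SE 0.27, p 0.00283, adjusted p 1). Nkain4 stood at 1.34 (SE 0.75) against I183P and at 1.05 against I183M (adjusted p 1), and at 0.74 and 0.65 on the normalized scale. Rspo1 and Nkain4 were named with their values seen, and both follow Msln, which read highest on the delta arrays. Their separation in delta therefore adds no support. In delta versus I183P the groups did not overlap for 19.4% of all genes. Of the 15 measured genes of this list 12 had a fold above 0 in delta versus I183P (median 0.20), 8 in delta versus I183M (median 0.15) and 11 in delta versus control (median 0.19), and none passed. Of all genes 67.5%, 47.3% and 52.2% were above 0 in these comparisons. The counts of the list were 7 in I183P versus control (median -0.19), 8 in I183M versus control (median 0.10) and 7 in I183P versus I183M (median -0.08). There 48.9%, 56.7% and 35.4% of all genes were above 0. On the normalized scale 8 of 15 were above 0 in delta versus I183P (median 0.02), 11 in delta versus I183M (median 0.10) and 11 in delta versus control (median 0.24). The medians of I183P versus control (9 of 15) and I183P versus I183M (9 of 15) turned there, to 0.20 and 0.10, and that of I183M versus control was 0.25 (11 of 15).

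Markers of other epithelia were read beside the members, since keratins and uroplakins are shared with them. The 10 genes of this list, among them Epcam, Cdh1, Sftpc and Scgb1a1, had a median deviation, each gene against its mean over the 12 arrays, of 3.68 on control replicate 1, 1.11 on I183M replicate 1 and 1.43 on delta replicate 2, the 3 arrays with bright dim probes. They lay between -1.65 and 0.11 on the others. All 10 were well above background on control replicate 1 and delta replicate 2, and 3 or 4 were on 8 of the others. The 4 other uroplakins were at 2.33, 0.92 and 1.1 on those 3 arrays and between -1.03 and -0.09 elsewhere, and the 6 further keratins at 1.88, 0.16 and 0.52. These keratins were also at 0.41 on delta replicate 3, above I183M replicate 1, and between -0.66 and -0.01 on the remaining arrays. On delta replicate 1, where Upk3b read highest, the other epithelia list was at its lowest (-1.65). In delta versus I183P 67.5% of all genes were above 0. Of the other epithelia list 8 of 10 genes were (median 0.91, and 0.12 on the normalized scale), with 3 of 4 uroplakins (0.46, and -0.02) and 6 of 6 keratins (0.68, and 0.21). None of these passed. Their part in the levels of Krt8, Krt19 and Upk1b was not tested.

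Genes of atrial muscle also had mostly positive folds in delta, but were not high on every delta array. All 7 were above 0 in delta versus I183M (median 0.78), 6 of 7 in delta versus I183P (median 1.07) and 5 of 7 in delta versus control (median 0.86), none past the threshold. Of all genes 47.3%, 67.5% and 52.2% were above 0 in these comparisons. The median deviation of the atrial genes was 2.50, -0.53 and 0.86 on the 3 delta arrays and -2.91 on I183P replicate 3. It was 0.85 and 0.45 on I183P replicates 1 and 2, 0.84 on I183M replicate 1 and 0.92 on control replicate 3. On the other arrays it lay between -0.63 and -0.10. Delta replicate 2, where Msln was highest, thus lay below the mean for atrial genes. Their medians on the normalized scale were 0.50 in delta versus I183M, 0.67 in delta versus I183P and 1.06 in delta versus control. Nppa, the gene of atrial natriuretic peptide, correlated with Msln at r 0.65 and Myl7, the atrial myosin light chain, at 0.52 over 11 arrays. Over the atrial list r ranged from -0.22 (Nr2f2) to 0.68 (Fgf12). Ventricular muscle genes ranged from -0.35 (Ryr2) to 0.56 (Myh6), with Tnnt2 at 0.55. Myl7 thus lay within the ventricular range, and Nppa and Fgf12 lay above it. With Upk3b, r ranged from -0.13 (Nr2f2) to 0.78 (Fgf12) over the atrial list. Over ventricular muscle genes it ranged from -0.49 (Ryr2) to 0.43 (Actc1). Myl7 read -5.06 on I183P replicate 3, the array lowest for Msln. The part of atrial tissue in the levels of the markers was not tested. Fibroblast genes had 3 of 9 and 2 of 9 above 0 in delta versus I183P and I183M (medians -0.26 and -0.20), endothelial genes 2 of 7 and 4 of 7 (-0.09 and 0.14), ventricular muscle genes 7 of 8 and 5 of 8 (0.06 and 0.01), adipocyte genes 6 of 8 and 0 of 8 (0.67 and -0.61) and lymphocyte genes 3 of 7 and 5 of 7 (-0.12 and 0.33). Ventricular muscle genes had 3 of 8 above 0 in both on the normalized scale (0.00 and -0.01), and adipocyte medians were 0.21 and -0.30.

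Msln and the altered gene Nkx2-5 both lie on chromosome 17. In the RefSeq gene order 57 genes stand between them, 37 of them protein coding, and 36 were measured. The 36 had a median log2 fold of 0.00 in delta versus I183P, -0.05 in delta versus I183M and 0.24 in delta versus control, and none passed. In delta versus I183P they ranged from -0.46 to 2.32. Pdia2, named after its value was seen, had the highest fold (2.32, SE 1.68, adjusted p 1), the 1 fold above that of Msln, and stood at 0.30 on the normalized scale, where the 36 lay between -0.45 and 0.31. The 3 nearest measured genes on each side of Msln were Chtf18, Rpusd1 and Mslnl, a gene related to Msln, and Ciao3, Haghl and Ccdc78. Their folds of delta versus I183P were 0.04, -0.13, 1.39 (SE 1.43), -0.09, -0.15 and 1.55 (SE 1.18), and on the normalized scale -0.04, -0.05, 0.25, -0.13, -0.22 and 0.31. None of the 6 passed (adjusted p 1). Msln stood at 1.84 and 1.34 on these scales.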

How the data were processed

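Total RNA of heart apex was labelled with Cy3 and measured on 12 single-colour Agilent arrays. Per the file headers, the deposited files give spot intensity read with Feature Extraction 11.0.1.1, background corrected within each array, on a layout built on mm9. The authors also deposited a table of log2 values of the same arrays, used as an alternative only. Feature Extraction and limma are the tools named per the submitters' processing notes.

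The log2 processed intensity was taken, control and outlier spots were dropped, repeated spots were averaged, and the 75th percentile of the array was taken off. Accessions were matched to RefSeq symbols (27235 of 55681 probes). Probes well above background on at least 3 arrays were tested, and the brightest tested probe stood for its gene. limma 3.58.1 in R 4.3.3 (lmFit, eBayes) was fitted over all 12 arrays and all genes, with 6 comparisons and a threshold of 0.05 on p adjusted by Benjamini-Hochberg. The normalized scale used normexp (offset 50) and quantile normalization. Permutation tests of correlations were two-sided with 100000 resamples. Fits were tested on simulated data.

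The members and the 10 gene lists were chosen with earlier results of these data known. All members are given on every array. A fold is given singly where its log2 size is at least 1 or it passed, and otherwise as a range. The 10 symbols most like Msln and Upk3b, the nearest measured neighbours of Msln, Nkx2-5, and list members of smallest p are named, and other listed genes were picked after their values were seen. Where no array of a line cleared background for a probe, the fold is a lower bound, set per array against the higher of its own value and the lowest signal well above background. The number of arrays limits the precision, and no spot was saturated.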

Additional observations from a re-analysis of the deposited data

How the results depend on the processing

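None of the 8 members passed in any of the 6 comparisons under any alternative run, which were other normalizations, the authors' table, median centring, other filters and probe rules, the slide, a replicate block, each array left out, and fits of only the lines compared. The 18 fitted folds beyond 1 in log2 size kept their direction. The stricter filter on dim probes left out Upk1b, and each member has 1 probe, so probe rules and filters do not bear on the correlations. Their sizes varied: Msln in delta versus I183M lay between 1.40 and 4.87, and in delta versus I183P between 0.85 and 3.83. With the replicate block Msln stood at 1.89 against I183M, and the block changed no call of a member. Same-numbered arrays did not deviate together as a set (median r 0.04 over 18 pairs, above 0.1 in 6). The arrays of brightest dim probes weigh on these values, with r 0.79 between control replicate 1 and I183M replicate 1. It was 0.87 between control replicate 1 and delta replicate 2. The check therefore cannot show whether the numbers pair the arrays.

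Correlations with Msln changed more. Of 64 values under alternatives, 49 kept sign and side of the threshold and 11 no longer passed. Only Upk3b, Lrrn4, Krt19 and Upk1b, with 8 values each, had passed in the main run and could stop passing. Each did so in some setting, with a highest adjusted permutation p of 0.0704, 0.111, 0.72 and 0.841 in that order. Those 11 include Upk3b without the 2 farthest arrays (adjusted permutation p 0.0704) and within slide 1 (adjusted permutation p 0.0568). The sign turned for Krt18 within slide 1 (-0.16), Wt1 by deviations from line means (-0.07) and Bnc1 without the 2 farthest arrays (0.32), and Bnc1 passed within slide 1 (-0.91, adjusted permutation p 0.0318), where 1 array carries its signal. The values within slide 1, those without the 3 arrays of brightest dim probes, and the normalized scale with control replicate 1 left out were chosen after the data were seen. Upk1b, Lrrn4 and Bnc1 are limited by their signal, which did not clear background on 6 or more arrays.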
